A study of Homo sapiens with 16 samples.

Results

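The regions described here were the intergenic regulatory regions outside repeats in the human monocytic leukemia line THP-1, 28615 of the 151654 regions of an H3K27ac ChIP-seq table (18.9%). A region belonged to the set when its annotation was intergenic and no repeat class, and when its identifier recorded that it was merged from 2 to 8 ATAC-seq peaks, so that open chromatin had been seen there in at least 2 peak files. The set was read in bins of the distance to the nearest transcription start site (TSS), with 5036 regions under 10 kb, 12102 at 10 to 50 kb, 5017 at 50 to 100 kb and 6460 above 100 kb. H3K27ac was measured in 4 groups of 2 libraries each: wild-type cells (WT, labelled Cas9 only) left untreated, WT cells given interferon alpha (IFNα, 1000 U/ml for 6 h), USP18 knockout cells (KO) left untreated, and KO cells given the same IFNα. The KO cells came from a sorted single-cell CRISPR clone, so the loss of USP18 and the history of that clone cannot be told apart in any comparison of KO with WT. The input libraries were not analysed here.

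H3K27ac is an acetylation of histone H3 that the coactivators p300 and CBP place on active promoters and enhancers. Far from genes it marks enhancers, which raise transcription from a distance through looping and are the part of the regulatory genome that differs most between cell types. IFNα acts through a receptor that activates JAK kinases and a transcription factor complex that binds the interferon-stimulated response element (ISRE). USP18 removes the ubiquitin-like modifier ISG15 from proteins and also holds the IFNα receptor in check, so cells without it signal longer and more strongly.

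A few of these regions are shown by sequence because they carry the recognition letters of the factors that the results below return to. The 200 bp at the centre of each window are given on the plus strand of GRCh38 (hg38), 5′ to 3′. Capitals mark only the motif named next for each region, searched as exact letters on both strands. Matches to the other motifs were left in lower case. The regions were chosen after their values were seen. The first holds the ISRE core GAAACNGAA (here on the minus strand), the next pair the Chop and ATF4 letters TGATGCAA, and the last 3 hold NF-kB (GGANTTTCC), CEBP (TTGCNNAA, minus strand) and AP-1 (TGANTCA) matches.
LINC00648 region, chr14:47857746-47857945, 62832 bp from the TSS, raised by IFNα in KO: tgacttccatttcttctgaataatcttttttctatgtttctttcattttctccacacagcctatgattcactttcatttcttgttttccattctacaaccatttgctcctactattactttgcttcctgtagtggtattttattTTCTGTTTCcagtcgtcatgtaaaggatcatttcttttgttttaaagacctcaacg
TRIB3 region, chr20:371863-372062, 8666 bp from the TSS, higher in KO: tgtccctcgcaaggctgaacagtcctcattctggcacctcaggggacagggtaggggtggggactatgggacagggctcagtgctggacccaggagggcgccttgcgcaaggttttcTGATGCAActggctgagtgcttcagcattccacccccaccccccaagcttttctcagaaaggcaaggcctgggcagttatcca
LINC01482 region, chr17:68698121-68698320, 70067 bp from the TSS, higher in KO: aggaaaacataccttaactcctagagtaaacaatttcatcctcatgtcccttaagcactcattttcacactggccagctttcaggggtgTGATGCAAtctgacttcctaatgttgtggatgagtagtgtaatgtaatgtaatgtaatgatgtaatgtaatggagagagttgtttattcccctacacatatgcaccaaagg
CCL8 region, chr17:34307245-34307444, 11702 bp from the TSS, raised by IFNα in KO: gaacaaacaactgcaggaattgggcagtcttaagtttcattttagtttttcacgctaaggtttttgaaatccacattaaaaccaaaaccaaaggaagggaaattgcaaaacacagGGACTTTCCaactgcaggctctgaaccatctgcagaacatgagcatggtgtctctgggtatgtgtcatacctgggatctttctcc
IKZF1 region, chr7:50273961-50274160, 30022 bp from the TSS, lower in KO: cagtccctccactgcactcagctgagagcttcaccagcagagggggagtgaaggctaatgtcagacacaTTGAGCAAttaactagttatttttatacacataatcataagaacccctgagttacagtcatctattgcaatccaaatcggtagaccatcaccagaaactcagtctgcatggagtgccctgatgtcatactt
ADAMTS15 region, chr11:130439240-130439439, 9634 bp from the TSS, lower in KO: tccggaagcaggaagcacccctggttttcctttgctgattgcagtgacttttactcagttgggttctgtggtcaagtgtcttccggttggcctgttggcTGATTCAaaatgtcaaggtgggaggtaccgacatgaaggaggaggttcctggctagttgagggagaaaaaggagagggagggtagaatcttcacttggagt

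The libraries held 9046141.0 to 12935453.5 tags in the regions, out of 24712371.0 to 30501088.5 tags in all and both totals were lower in every WT library than in every KO library. Of the promoters of the monocytic and myeloid markers checked, 11 of 12 reached 5 CPM (counts per 1000000 counts of the TMM-scaled library), CSF1R being the exception at a median of 2.05. The T-cell, erythroid and fibroblast lists each had 1 promoter and none reached 5 CPM, while 1 of 3 B-cell promoters did, CD79A at 5.32. The region nearest to the start of USP18 itself held 7.74 and 7.52 CPM in untreated WT, 17.8 and 14.8 in WT with IFNα, 8.09 and 8.35 in untreated KO, and 48.4 and 41.1 in KO with IFNα. An acetylation mark at the promoter does not show whether the protein is lost, so it is no check of the knockout label.

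The intergenic regions lay upstream of their nearest TSS in 63.3% of cases, at a median distance of 35587 bp and at most 3664659 bp. They were nearest to 10342 genes, 68.2% of them to protein-coding ones, and some genes gathered many. KLF4 had 34, PRDM1 27, PTGER4 26 and SMARCA2 25, the first pair being transcription factors of myeloid and plasma cell differentiation. By the GENCODE v44 annotation the centres of 69.4% of the windows lay in no gene, 18.3% in a long noncoding RNA gene and 10.6% in a coding gene that the annotation used for the table does not list there. More of the regions, 15680, were merged from 8 ATAC-seq peaks than from any other number. Windows of 14.7% of the regions overlapped another window of the set and share reads with it.

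Their H3K27ac was low at most places and high at few. The median region held 1.12 CPM in the first untreated WT library, against 1.53 over all regions of the table, and the upper decile of the mean over libraries was 10.9 CPM. The mean over the set was 4.53 ± 0.0198 CPM in untreated WT (SD, n = 2), 4.51 ± 0.0408 in WT with IFNα, 4.30 ± 0.0416 in untreated KO and 4.5 ± 0.0744 in KO with IFNα. Acetylation fell off with distance in every group. In untreated WT the mean went from 5.29 ± 0.0145 CPM under 10 kb to 3.50 ± 0.0455 above 100 kb, and in KO with IFNα from 6.10 ± 0.0903 to 3.08 ± 0.0639. On this TMM scale the nearest bin was higher and the farthest bin lower in KO than in WT, while the shares of counts, which use no TMM factors, are lower in KO in every bin. GC content fell with distance too, from a median of 50.5% in the centres under 10 kb through 49.0% and 47.0% to 44% above 100 kb, and its part in the differences below was not tested. At least 10 counts in at least 2 libraries were found in 79.8% of the regions under 10 kb but in 67.1% of those above 100 kb, which left 21376 regions (74.7%) for testing, against 81.3% over the whole table.

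As a share of the counts in all regions, the intergenic set took 13.9% and 14.0% in untreated WT and 13.6% and 14.1% in WT with IFNα, but 12.1% and 11.8% in untreated KO and 11.5% and 11.4% in KO with IFNα. Every KO library lay below every WT library. The mean share was 11.7% in the 4 KO libraries and 13.9% in the 4 WT libraries, a difference of -2.18 percentage points (exact permutation test, two-sided, p = 0.0286, the smallest that 4 against 4 allows, adjusted p = 0.0286 over 5 values). The difference was -0.166 percentage points under 10 kb, -0.912 at 10 to 50 kb, -0.492 at 50 to 100 kb and -0.610 above 100 kb, each with the same exact permutation p = 0.0286. The permutation exchanged untreated and IFNα-treated libraries freely, so treatment was not held fixed, and all 4 KO libraries come from 1 clone. The bins are parts of the set, so these p-values are not independent of each other. Relative to the WT share the loss was smallest nearest to genes, where 2.89% stood against 2.72%, and largest above 100 kb, where 2.41% stood against 1.80%. Taken over all tags of a library instead, a calculation added after the data were seen, the set held 5.12% in WT and 4.71% in KO (exact permutation p = 0.0286, adjusted p = 0.0357). On that scale the bin under 10 kb did not differ beyond its spread, with 1.07% in WT and 1.09% in KO (exact permutation p = 0.314), while the 3 farther bins stayed lower. With 2 libraries against 2 an exact permutation test cannot go below p = 0.333, so IFNα was not tested on shares.

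**Figure D1:**
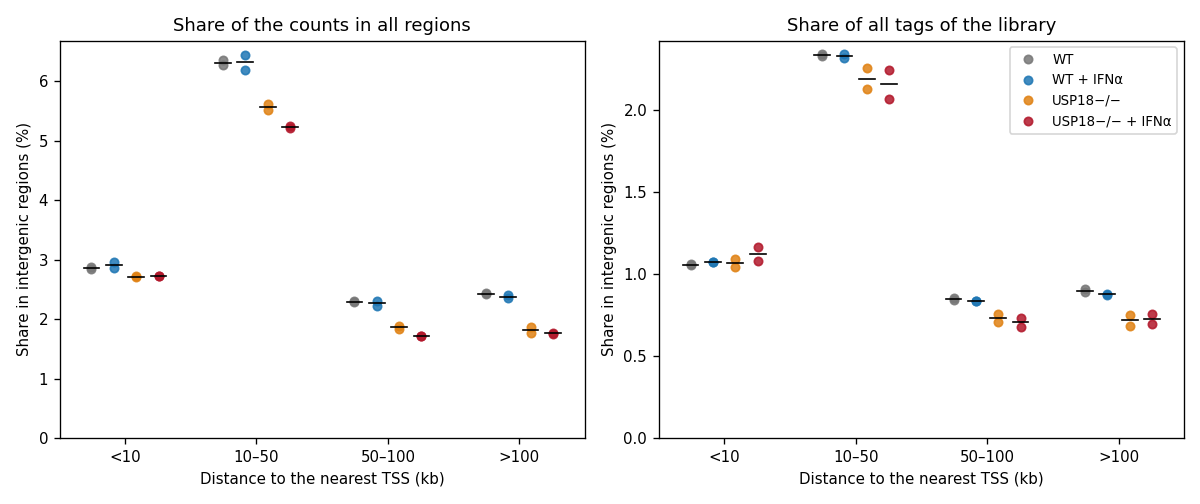
Share of counts in intergenic regions by distance to the nearest TSS (x axis, kb), in percent of the counts in all regions (left) and of all tags of the library (right); each point is 1 library and each short line the mean of a group of 2. Above 100 kb all 4 KO libraries lie below all 4 WT libraries on both scales, while under 10 kb they do so only on the left.

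The first question was how much of the intergenic acetylation changes when WT cells meet IFNα. Little did: 74 regions rose and 7 fell, among 21376 tested. That was 0.346% and 0.0327%, close to the 0.342% and 0.0389% of all tested regions that rose and fell. By distance 28 regions rose under 10 kb (0.697% of those tested), 19 at 10 to 50 kb (0.203%), 9 at 50 to 100 kb (0.247%) and 18 above 100 kb (0.415%). A region counted as changed when edgeR's quasi-likelihood test gave an adjusted p under 0.05 over all regions of the table and a fold change above 2.

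The regions that rose most in WT included neighbours of known interferon genes and places far from any. The region 5392 bp from the TSS of IFIT2, an antiviral RNA-binding protein, lies at chr10:89296057-89297057, inside LIPA by GENCODE. It held 8.46 and 9.13 CPM in untreated WT, 42.0 and 37.7 in WT with IFNα, 15.4 and 16.3 in untreated KO, and 136 and 145 in KO with IFNα. It rose 4.52-fold in WT (log2 2.18, SE 0.127, edgeR adjusted p = 8.26e-25) and 8.86-fold in KO (log2 3.15, SE 0.107). The difference of the 2 responses (log2 0.97, SE 0.174, edgeR adjusted p = 1.12e-05) stayed below the 2-fold threshold, so it was not called. All 4 groups stood apart from each other at this region. For regions that the naming rule described below picked from a comparison of 2 groups, no overlap between those 2 groups was required.

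Next to LY6E, a membrane protein of the interferon response, the region at 5745 bp went from 3.36 and 3.85 CPM to 47.8 and 43.7 in WT, and from 4.05 and 5.51 to 99.8 and 99.7 in KO. It was the steepest rise in WT among the named regions, 12.6-fold (log2 3.66, SE 0.154). NEURL3, which codes for an interferon-induced ubiquitin ligase, had a region 19190 bp away at 2.55 and 2.86 CPM in untreated WT, 21 and 20.1 after IFNα, 9.38 and 9.02 in untreated KO and 99.2 and 93.9 in KO with IFNα. That region was already higher in KO before treatment (log2 1.76, SE 0.203, adjusted p = 9.67e-12), and its response did not differ between the genotypes by the test (log2 0.47, SE 0.25, adjusted p = 0.26). The region 22989 bp from TLR7, the endosomal receptor for single-stranded RNA, held 0.306 and 0.448 CPM in untreated WT (3 and 5 counts), 3.32 and 4.05 with IFNα, 0.43 and 0.19 in untreated KO (5 and 2 counts), and 11.9 and 10.4 in KO with IFNα.

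Far from genes the same kind of rise was seen. A region 301878 bp from LINC02077, a long noncoding RNA, went from 0.611 and 1.52 CPM to 5.86 and 5.56 in WT and from 0.775 and 0.854 to 30.4 and 28.2 in KO. Its centre lies in no gene in GENCODE, and the region rose 5.18-fold in WT (log2 2.37, SE 0.309). The 7 regions that fell in WT had a median log2 fold change of -1.14, and among them were a region 84913 bp from KIT, the stem cell factor receptor, with 13.9 and 10.0 CPM before and 5.27 and 6.47 after IFNα, and 1 that lies 29022 bp from LOC105371899, with 10.6 and 9.85 before and 3.91 and 5.36 after. Both calls were lost without the first WT library given IFNα (edgeR adjusted p = 0.175 and 0.13), and KIT's also without the first untreated one (adjusted p = 0.35). The count of 7 became 2 without the first WT library given IFNα and 3 without either untreated WT library.

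The next question was what IFNα does when USP18 is missing. In KO cells 1606 intergenic regions rose (7.51% of those tested, against 7.12% over all regions) and 1223 fell (5.72%, against 4.3%). By distance the share that rose was 7.72%, 6.95%, 7.05% and 8.93% from the nearest bin to the farthest, and the share that fell was 5.30%, 5.48%, 6.09% and 6.32%. Of the 74 regions that rose in WT, 72 (97.3%) also rose in KO, and these made up 4.48% of the 1606. Such an overlap was not counted over all regions, so whether it is particular to intergenic regions was not tested. The WT and KO responses use different libraries. Over those 74 regions the responses had medians of 1.58 (WT) and 3.34 (KO) on the log2 scale. With libraries scaled by their summed counts alone, 1370 regions rose and 1825 fell, and 1484 and 1523 with tag directory totals, so which direction is more common in KO depends on the scaling. The sum of counts lowered the median of all regions by 0.13 on the log2 scale.

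Steep rises in KO were seen both at regions that IFNα left low in WT and at regions that also rose in WT. The region 3349 bp from APOBEC3A, a cytidine deaminase that restricts viruses, lies inside the gene in GENCODE and held 1.12 and 0.806 CPM in untreated WT, 1.17 and 1.31 in WT with IFNα, 0.861 and 1.42 in untreated KO, and 36.6 and 36.7 in KO with IFNα. Only the IFNα-treated KO libraries were high, and the rise was 32.2-fold (log2 5.01, SE 0.221, edgeR adjusted p = 5.88e-35). Counts there may be shared with close copies in the APOBEC3 family. The region 38855 bp from CLMP, a cell adhesion molecule, held 0.516 and 0.57 CPM in untreated KO (6 counts in each library) and 27 and 32.1 with IFNα, while WT went from 1.94 and 1.61 to 8.30 and 7.99. The region 27706 bp from PARTICL, a long noncoding RNA, went from 2.24 and 2.15 CPM to 14.4 and 16.3 in WT and from 2.32 and 1.14 to 84.5 and 68.6 in KO.

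GBP5, a guanylate-binding protein of inflammasome activation, had a region 1804 bp away that held 4.18 and 3.40 CPM in untreated WT, 9.67 and 9.81 in WT with IFNα, 1.38 and 1.42 in untreated KO, and 51.9 and 52.6 in KO with IFNα. It was thus lower in KO than in WT without treatment (log2 -1.42, SE 0.295, adjusted p = 4.7e-05) and higher with it (log2 2.42, SE 0.139). In all, 41 intergenic regions were called lower in untreated KO and higher in treated KO, each against WT, and 0 showed the reverse. The same was not counted over all regions, so whether this is particular to intergenic regions was not tested.

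Several strong rises lay near long noncoding or micro-RNA genes at great distance. A region 244972 bp from MIR4791 went from 0.602 and 0.285 CPM in untreated KO to 24.1 and 20.3, and held 0.488 and 2.02 in WT with IFNα. A region 78364 bp from LINC01482 went from 0.43 and 0.38 CPM to 28.0 and 24.1, and held 1.17 and 1.11 in WT with IFNα. The LINC00648 region whose sequence is shown above went from 0.775 and 0.664 CPM in untreated KO to 19 and 17.8. PTPRO, a receptor tyrosine phosphatase, had a region 59710 bp away at 0.258 and 0.57 CPM in untreated KO, 16.4 and 13.0 in treated KO, and 1.46 and 1.82 in treated WT. At each of these 4 the IFNα-treated KO libraries stood clear of all other libraries. The naming rule required no overlap between the 2 groups of the comparison that picked a region, so this separation was partly fixed beforehand.

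None of the named regions that fell most with IFNα in KO was called in WT. The region 15794 bp from ZFP36L2, which destabilises AU-rich mRNAs, held 55.4 and 50.8 CPM in untreated WT, 47.9 and 49.1 in WT with IFNα, 53.4 and 54.6 in untreated KO, and 10.8 and 10.2 in KO with IFNα (5.13-fold lower, log2 -2.36, SE 0.121, adjusted p = 1.31e-30). A region 31801 bp from LOC101927844 fell from 20.2 and 20.0 CPM to 3.41 and 3.79 in KO, with 22.5 to 23.9 in the 4 WT libraries. The region 6871 bp from PWWP2B, a chromatin protein, held 38.2 and 37.4 CPM in untreated KO against 6.62 to 9.04 in the 4 WT libraries, and came down to 8.57 and 7.87 with IFNα. A region 3027 bp from PLAU, the urokinase plasminogen activator, held 30.0 and 35.5 CPM in untreated KO and 13.1 and 14.1 with IFNα, against 41.9 and 43.8 in WT with IFNα. Only the treated KO libraries were low at ZFP36L2, LOC101927844 and PLAU.

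**Figure D2:**
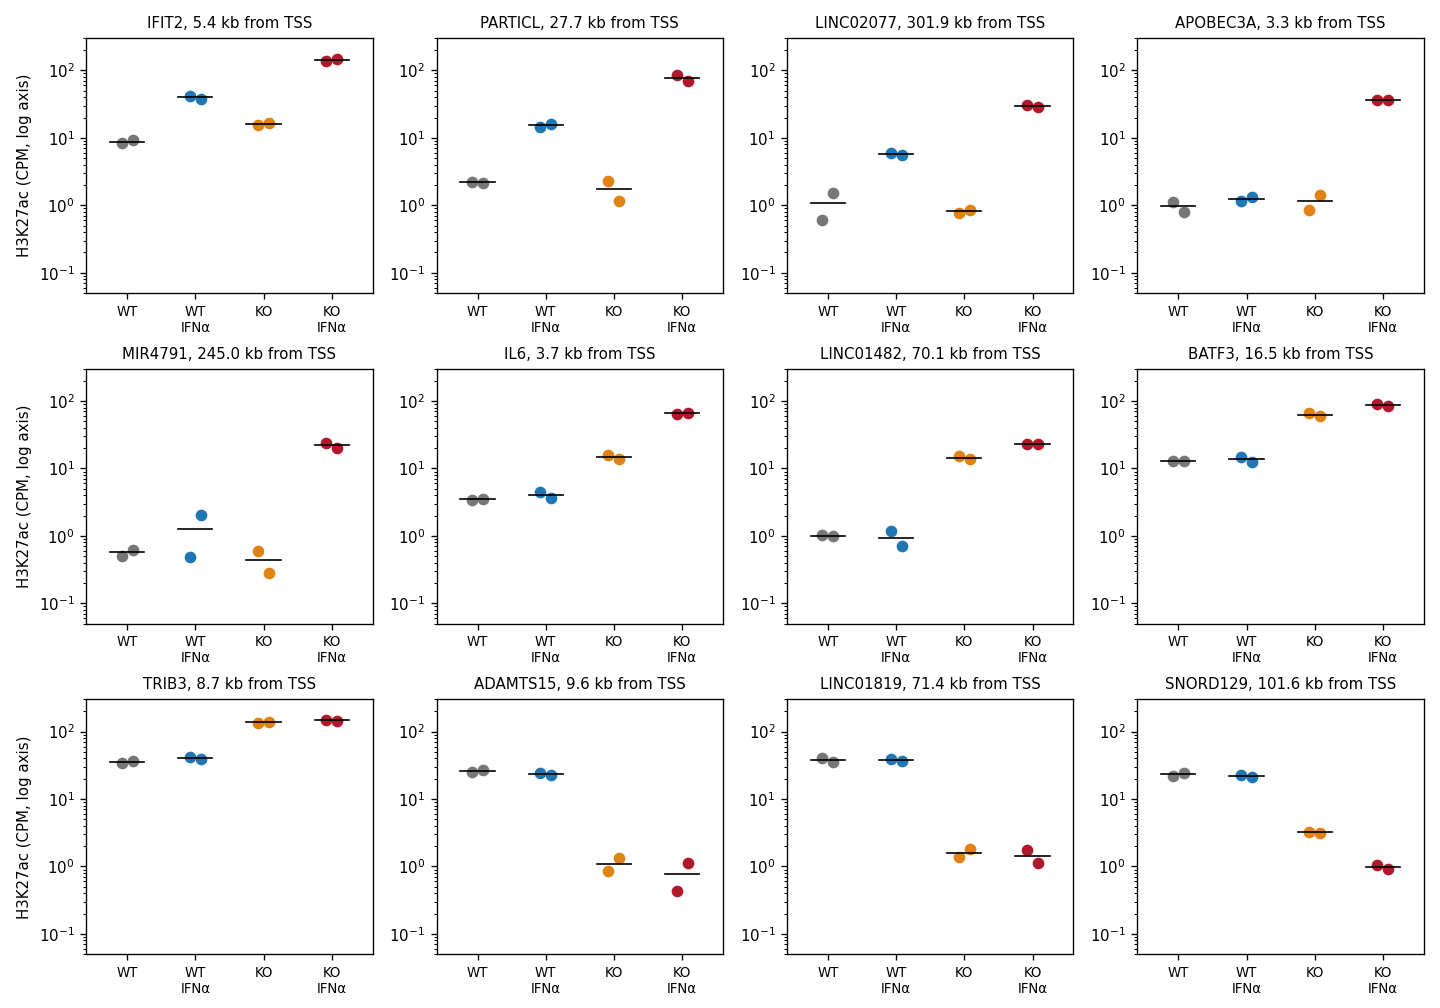
H3K27ac (CPM, log axis) at 12 named intergenic regions, 1 panel per region with its nearest gene and distance; points are the 2 libraries of each group and lines the group means. IFIT2, PARTICL and LINC02077 rise in both genotypes, APOBEC3A and MIR4791 are high only in KO with IFNα, and ADAMTS15, LINC01819 and SNORD129 are low in both KO groups.

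The difference between the IFNα effects in KO and WT was tested directly. It passed in the upward direction at 1006 regions (4.71%, against 4.66% over all regions) and in the downward direction at 701 (3.28%, against 2.51%). Scaled by summed counts, the split was 836 and 1087, and the tag directory totals gave 907 and 856. The 3 regions with the largest positive difference were the APOBEC3A region (log2 4.63, SE 0.573), the MIR4791 region (log2 4.48, SE 0.779) and the CCL8 region at 11702 bp (log2 4.4, SE 0.743). The 3 largest in the other direction were a region 6888 bp from ARSD-AS1 (log2 -2.90, SE 0.474), the region near LOC102723709 (log2 -2.49, SE 0.408), which lies in duplicated sequence and is uncertain, and the LOC101927844 region (log2 -2.44, SE 0.225).

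The third question was how KO cells differ from WT cells without IFNα. Here 1083 regions were higher in KO (5.07%, against 5.67% over all regions) and 3001 lower (14.0%, against 10.8%). The higher share scarcely moved with distance, at 5.78%, 4.83%, 4.75% and 5.19%. The lower share grew with it, from 10.4% under 10 kb through 12.6% and 15.8% to 19% above 100 kb, and the median log2 fold change of the tested regions went from -0.03 through -0.15 and -0.23 to -0.32. Among regions with a mean of at least 30 counts the lower share was 13.8%, 18.7%, 22.6% and 26.4%, so the order held among regions of good depth. Intronic regions outside repeats showed the same order, with 8.20%, 10.8%, 13.3% and 15.9% lower and medians of 0.06, -0.07, -0.14 and -0.29. Regions are not replicates, and no test was made across them.

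With IFNα in both genotypes more regions were called in each direction. The median log2 fold change of the tested intergenic regions stayed alike, at -0.168 without and -0.173 with IFNα. Then 2108 regions were higher in KO (9.86%, against 11.3% over all regions) and 3877 lower (18.1%, against 13.4%), with 14.1%, 17%, 21% and 22% lower from the nearest to the farthest bin. This comparison and the untreated one share no library. Both called the same 638 regions higher, 58.9% of those higher without and 30.3% of those higher with treatment, and the same 2057 lower, 68.5% and 53.1%. The overlap was not counted over all regions, so whether it is particular to intergenic regions was not tested. Both pairs still come from the same clone.

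The balance of higher and lower calls leaned on the scaling. Of the calls without treatment 26.5% were upward, and 42.8% (1662 against 2220) when the scaling factors came from the intergenic regions alone, which raised the median of all regions by 0.19 on the log2 scale. With IFNα 35.2% were upward, 50.9% (2937 against 2830) with those factors and 21.2% (1438 against 5361) with summed counts. A scaling factor moves all regions of a library alike and so cannot change the step in the median from the nearest to the farthest bin, which was -0.29 on the log2 scale without treatment. The step was -0.13 when each 10 Mb stretch was centred on its own median, -0.20 with no count filter and -0.42 among regions with at least 30 counts. With IFNα it was -0.21, and under the same 3 settings -0.09, -0.12 and -0.45, so its size depended on them while its direction did not.

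**Figure D3:**
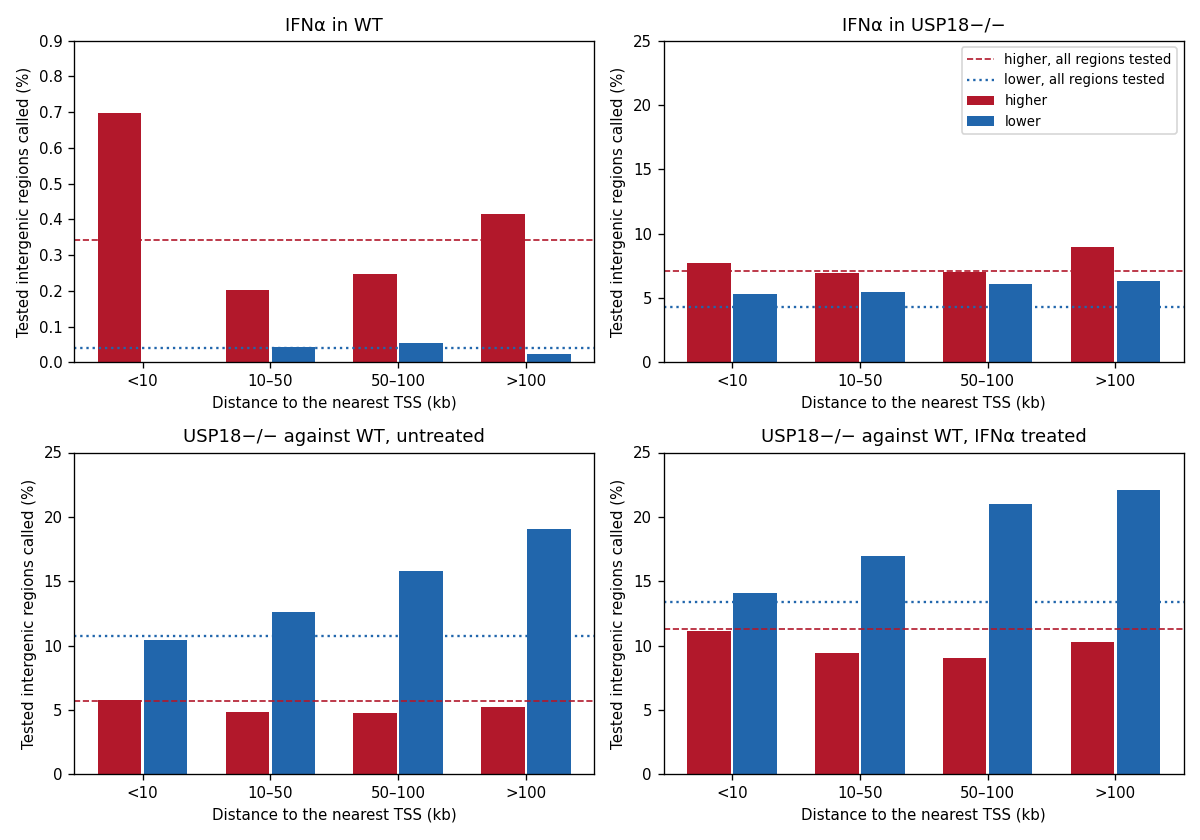
Percent of tested intergenic regions called higher or lower (bars) by distance to the nearest TSS in kb, for 4 comparisons; the broken lines give the same percentages over all regions tested, and the panel for IFNα in WT has its own axis. In untreated cells the share lower in KO goes from 10.4% to 19%, while the share higher stays between 4.75% and 5.78%.

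**Figure D4:**
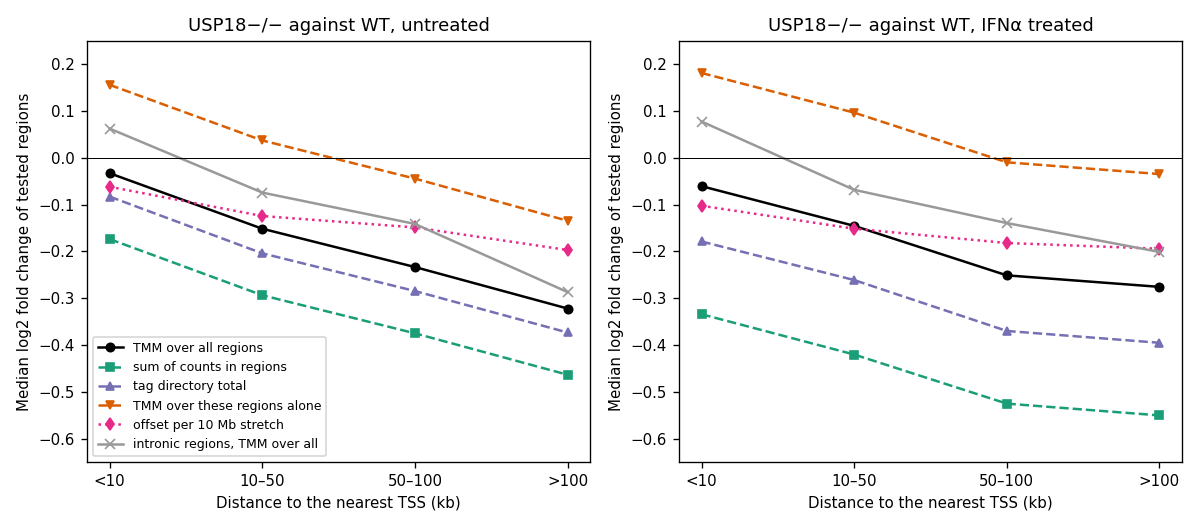
Median log2 fold change of KO against WT over tested intergenic regions by distance to the nearest TSS in kb, without (left) and with IFNα (right), under 5 scalings and, in grey, over intronic regions. The scalings shift the whole line and cannot change its slope, while centring on 10 Mb stretches flattens it.

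Among regions lower in KO, several were all but lost. The ADAMTS15 region whose sequence is shown above, near the gene of a secreted metalloprotease, held 25.2 and 26.9 CPM in untreated WT, 24.6 and 23 in WT with IFNα, 0.861 and 1.33 in untreated KO and 0.437 and 1.11 in KO with IFNα. It was 23.8-fold lower without IFNα (log2 -4.57, SE 0.23, adjusted p = 2.05e-30). A region 71414 bp from LINC01819 held 35.0 to 40.5 CPM in the 4 WT libraries and 1.11 to 1.80 in the 4 KO libraries. One 26814 bp from LINC01354 held 25.7 to 30.4 in WT and 1.02 to 1.49 in KO. The groups did not overlap at any of these, which the naming rule required in the comparison that picked a region. IFNα changed none of the 3 in either genotype by the test. A region 3768 bp from MIR4457 was the most acetylated of the lost ones, at 122 and 123 CPM in untreated WT, 111 and 101 in WT with IFNα, 6.63 and 7.5 in untreated KO and 2.80 and 2.31 in KO with IFNα. It holds a match to the ISRE core, yet fell further with IFNα in KO (log2 -1.46, SE 0.204, adjusted p = 5.67e-09).

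SNORD129, a small nucleolar RNA gene, had a region 101557 bp away with 21.2 to 24.3 CPM in the 4 WT libraries, 3.27 and 3.13 in untreated KO and 1.05 and 0.925 in KO with IFNα. Upstream of IKZF1, which codes for the lymphoid and myeloid factor Ikaros, the region at 34870 bp held 43.2 and 43.3 CPM in untreated WT, 41.3 and 40.3 in WT with IFNα, 18.1 and 16.9 in untreated KO and 3.94 and 4.63 in KO with IFNα. The IKZF1 region shown by sequence, at 30022 bp, held 10.6 to 14.3 CPM in the WT libraries, 1.81 and 1.80 in untreated KO and 1.05 and 0.555 in treated KO. Both lay lower in KO without IFNα. The further fall with IFNα in KO passed at both, but at 30022 bp it was lost with DESeq2 (adjusted p = 0.0502) and without either untreated KO library or the second treated one (adjusted p = 0.09, 0.0842 and 0.273).

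Among regions higher in KO, the region 16503 bp from BATF3, a transcription factor of dendritic cells, held 12.4 to 14.9 CPM in the 4 WT libraries, 65.2 and 59.9 in untreated KO and 91.7 and 85.1 in KO with IFNα (4.88-fold without IFNα, log2 2.29, SE 0.118, adjusted p = 7.55e-30). The TRIB3 region shown above lies inside that gene in GENCODE. TRIB3 codes for a pseudokinase that the stress factors ATF4 and Chop induce, and its region held 33.8 and 36.8 CPM in untreated WT, 41.5 and 39.2 in WT with IFNα, 135 and 138 in untreated KO and 149 and 144 in KO with IFNα. IFNα did not change it in KO by the test (log2 0.10, SE 0.0813, adjusted p = 0.445). The LINC01482 region shown by sequence, with the same Chop letters, held 0.708 to 1.17 CPM in WT, 15.1 and 13.8 in untreated KO and 23.1 in both treated KO libraries. A region 87569 bp from LINC02024 held 0.537 to 1.12 CPM in WT and 10.4 to 15.9 in KO, and a region 3423 bp from SIGLEC8, a sialic acid receptor of eosinophils and mast cells, held 1.76 to 2.65 in WT, 19.9 and 18.6 in untreated KO and 11.5 and 9.25 in treated KO. No WT library reached the lowest KO library at any of these 5 regions. Where the naming rule picked a region, it required no overlap in the comparison used.

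The letters of the recognition motifs were spread unevenly over these sets. The ISRE core was in 2.76% of the intergenic centres and in 2.84% of all centres in the table. It was in 12.2% of the regions that rose with IFNα in WT (9 of 74, against 17.8% of the 422 that rose over all regions), in 12.2% of those that rose in KO (196 of 1606, against 13.9% of 8783) and in 2.32% of the tested regions that IFNα did not change in KO. Its share among those that rose in KO was alike in all bins, at 11.6%, 12.9%, 11.3% and 12.1%. Seen from the other side, of the tested regions with an ISRE core 33.3% rose in KO under 10 kb, 29.8% at 10 to 50 kb, 26.4% at 50 to 100 kb and 32.0% above 100 kb. Most regions that rose had no exact match, the LY6E, IFIT2 and APOBEC3A regions among them, and these 9 letters are a narrow form of the element.

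The Chop and ATF4 letters were in 2.06% of the intergenic centres and 1.88% of all centres. They were in 11.0% of the regions higher in untreated KO (119 of 1083), in 2.05% of the regions that did not differ there and in 1.4% of those lower. The same called sets over all regions tested gave 7.64%, 1.70% and 1.44%. The CEBP letters were in 18.6% of the intergenic centres (16.4% of all), in 27.8% of the regions lower in untreated KO and in 16.4% of those higher, against 18.5% of the regions not called. Over all regions tested these shares were 26.4%, 12.7% and 15.5%, so the pattern was not particular to intergenic regions. The regions lower in KO were also poorer in GC, with a median of 45.5% against 48.5%. AP-1 letters, in 15.4% of the intergenic centres (12.9% of all), were in 21.7% of the regions that rose with IFNα in KO and in 8.91% of those that fell. Over all regions tested these shares were 17.6% and 8.43%. PU.1 letters (GAGGAAGT) were in 7.34% of the intergenic centres (6.40% of all), and in 6.79% of the regions that rose and 10.4% of those that fell with IFNα in KO (5.43% and 9.05% over all regions tested). The NF-kB letters were in 0.965% of the intergenic centres (0.861% of all) and in 1.76% of the regions higher in treated KO (1.53% over all regions tested). Among regions that rose with IFNα in KO they were in 0.872% (14 of 1606), against 1.08% of those not called there. Over all regions tested these shares were 1.18% and 0.872%. Of the 74 intergenic regions that rose with IFNα in WT, 0 held them. The CTCF core AGGGGGCGC was in 1.30% (1.20% of all) and in 0.533% of the regions lower in untreated KO (0.384% over all regions tested). A match is a description of the letters, not of a bound factor.

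Regions whose nearest gene is an interferon-stimulated gene were few, since 29 of the 71 listed genes had 51 intergenic regions between them, 41 of which were tested. With IFNα 4 of the 41 rose in WT (9.76%, against 0.342% over all regions tested), at IFIT2, GBP5 and TNFSF10, and 19 rose in KO (46.3%, against 7.12%) at 12 genes, among them OASL, IFITM3, PARP14, GBP2, SP100, ZBP1 and IRF1. The median log2 fold change of the 41 was 0.40 in WT and 0.87 in KO, against -0.01 in each over all regions tested. None fell. In untreated KO 2 of the 41 were higher (4.88%, against 5.67%) and 5 lower (12.2%, against 10.8%) than in WT, shares near those of all regions, with a median of 0.16 against -0.02 over all regions tested. The difference of the IFNα effects passed upward at 12 of the 41 (29.3%, against 4.66%) and downward at 0.

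TNFSF10 codes for TRAIL, the death ligand that interferon induces, and had 5 intergenic regions. All 5 rose with IFNα in KO. The one 23502 bp from the TSS held 3.36 and 6.27 CPM in untreated WT, 9.77 and 9.91 in WT with IFNα, 2.41 and 3.04 in untreated KO and 66.4 and 55.1 in KO with IFNα. TNFSF10 and the genes of the next paragraphs with several regions were chosen after their values were seen.

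Regions near inflammatory and NF-kB response genes moved both ways. Of 77 tested, 13 were higher (16.9%, against 5.67% over all regions tested) and 7 lower (9.09%, against 10.8%) in untreated KO. In treated KO 20 were higher (26%, against 11.3%) and 15 lower (19.5%, against 13.4%). IFNα raised 13 (16.9%, against 7.12%) and lowered 6 (7.79%, against 4.3%) in KO but raised 1 in WT (1.30%, against 0.342%), near PTGS2, which codes for cyclooxygenase 2. That single call was lost without any of the 4 WT libraries in turn (edgeR adjusted p = 0.06 to 0.418). The region 3652 bp from IL6, the cytokine gene, which lies inside STEAP1B in GENCODE, held 3.36 and 3.58 CPM in untreated WT, 4.49 and 3.64 in WT with IFNα, 15.9 and 14.0 in untreated KO and 64.0 and 67.3 in KO with IFNα. It was 4.29-fold higher in KO without IFNα (log2 2.10, SE 0.186) and 16.1-fold with it (log2 4.01, SE 0.154, adjusted p = 1.41e-38). Around it, the 8 regions nearest to LOC100506178, a noncoding gene beside IL6, all rose with IFNα in KO, with a median log2 fold change of 1.72, and none was called in WT.

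The monocyte chemokine genes CCL2 and CCL8 stood out in the same list. Of the 6 regions nearest to CCL2, 5 were higher in untreated KO, 6 in treated KO and 4 rose with IFNα in KO. The one 12483 bp upstream held 2.24 in both untreated WT libraries, 2.83 and 3.54 CPM in WT with IFNα, 6.63 and 8.92 in untreated KO and 23.5 and 21.8 in KO with IFNα. Both CCL8 regions rose with IFNα in KO. The one shown by sequence, at 11702 bp, held 0.713 and 0.358 CPM in untreated WT (7 and 4 counts), 0.586 and 0.405 in WT with IFNα, 1.46 and 1.61 in untreated KO and 31.4 and 30.4 in KO with IFNα. The other, at 4658 bp, held 0.408 to 0.879 CPM in the WT libraries, 1.03 and 1.04 in untreated KO and 27.5 and 23.5 in KO with IFNα. Other genes of the list went down in KO. Regions near CXCL8, the neutrophil chemokine gene, were lower in KO with and without IFNα.

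Integrated stress response and amino acid genes had 34 tested regions. In untreated KO 4 were higher (11.8%, against 5.67% over all regions tested), near TRIB3, DDIT4, GDF15 and CBS, and 0 were lower (against 10.8%). The CBS window lies in a stretch that GRCh38 carries in a near-identical copy, so its counts are uncertain. In treated KO 2 were higher and 2 lower (5.88% each, below the 11.3% and 13.4% over all regions), and IFNα lowered 1 in KO (2.94%, against 4.3%), near XBP1. Most of the 34 were not called in any of these comparisons.

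Myeloid and leukemia transcription factor genes had the most intergenic regions of the 4 lists, 211 tested. In untreated KO 14 were higher (6.64%) and 31 lower (14.7%), and in treated KO 28 were higher (13.3%) and 50 lower (23.7%). The shares over all tested intergenic regions were 5.07% and 14.0%, and 9.86% and 18.1%, and over all regions tested 5.67% and 10.8%, and 11.3% and 13.4%. IFNα raised 24 (11.4%, against 7.12% over all regions) and lowered 14 (6.64%, against 4.3%) in KO, and raised 4 in WT (1.90%, against 0.342%). Near KLF4, 2 of 34 regions were higher and 4 lower in untreated KO, and at EGR2 regions were called in both directions as well.

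BCL2, which codes for the antiapoptotic protein, had 15 intergenic regions, 14 of them between 199602 and 296752 bp downstream. In untreated KO 13 were lower and in treated KO 14, and none was higher. The region at 208917 bp held 35.5 to 41.5 CPM in the 4 WT libraries, 11.7 and 12.6 in untreated KO and 14.3 and 14.1 in KO with IFNα. The region at 228894 bp held 9.48 and 9.40 CPM in untreated WT, 7.52 and 6.27 in WT with IFNα, 2.84 and 2.85 in untreated KO and 0.35 and 0.648 in KO with IFNα. The most acetylated, at 219132 bp, held 86.0 to 89.4 CPM in WT, 72.1 and 78.4 in untreated KO and 30.3 and 26.8 in KO with IFNα. It and the region at 244102 bp were the 2 not called lower without IFNα. Several of these windows overlap (206477 with 207317, 208917 with 209363, 235572 with 236056 bp). The span, which covers the gene itself, held 43 tested regions, the 15 intergenic ones included. Of these, 17 were lower in untreated KO, among them the 13 intergenic ones already counted, and 4 were higher. After centring on 10 Mb stretches 10 of the 15 were still lower in untreated KO and 14 in treated KO.

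**Figure D5:**
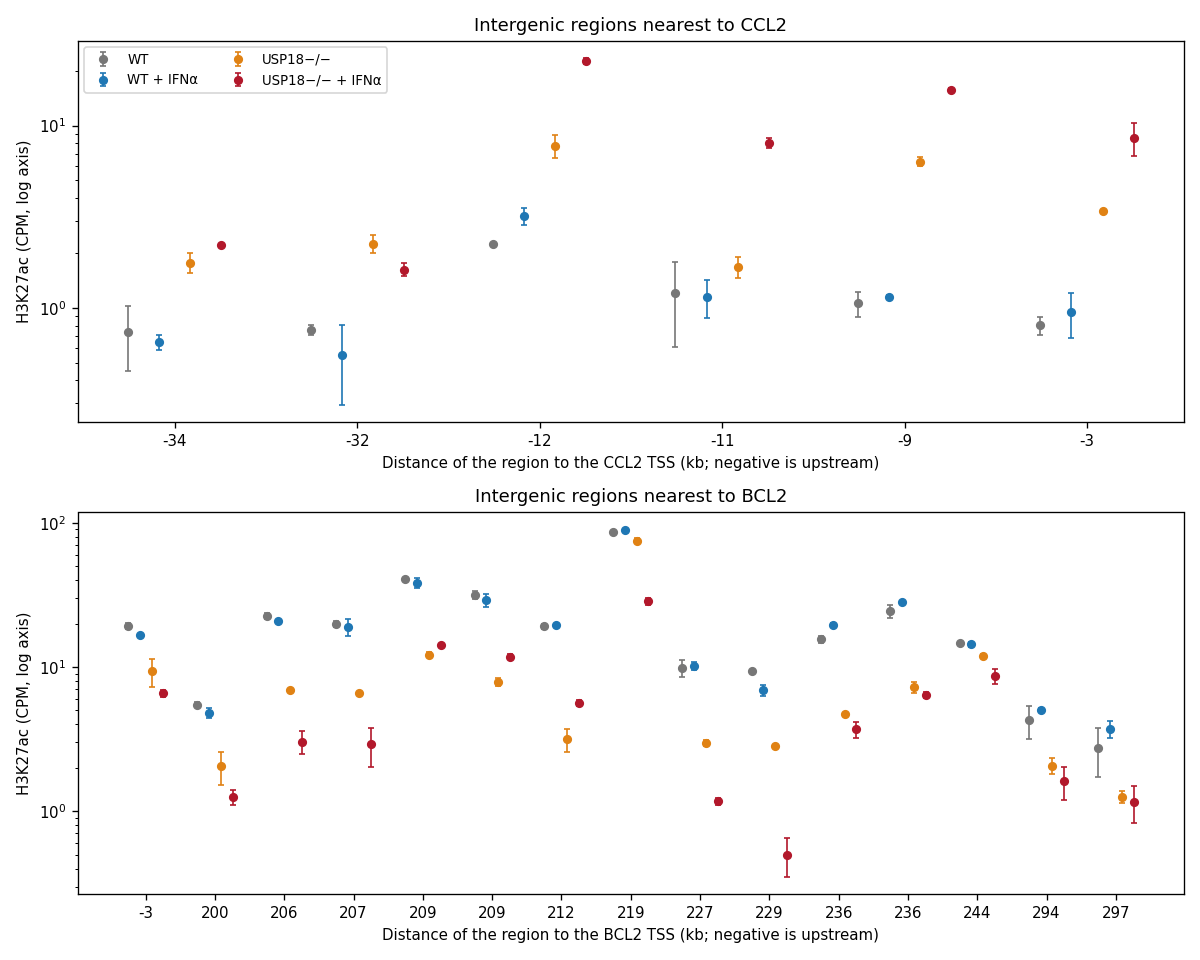
H3K27ac (CPM, log axis) at the intergenic regions nearest to CCL2 (6, top) and BCL2 (15, bottom), ordered by distance to the TSS in kb; points are group means and bars run from the lower to the higher of 2 libraries. At CCL2 the KO with IFNα is the highest group at 5 of 6 regions, at 23.5 and 21.8 CPM 12483 bp upstream, and at BCL2 the means of both KO groups lie below both WT means at all 15 regions.

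Other runs of neighbouring regions moved together between genotypes. All 10 regions nearest to SPEF2 and all 9 nearest to PRLR, adjacent on chromosome 5, were lower in untreated KO, with medians of -1.94 and -1.86 on the log2 scale. Counting regions of every class in the 2 spans, the intergenic ones included, 21 of 23 and 9 of 10 were lower. At PRLR those 9 are the intergenic regions themselves. After centring on 10 Mb stretches 8 and 4 of the intergenic ones were lower. In treated KO all 10 SPEF2 regions but only 5 of the 9 PRLR regions were lower, and 8 and 0 after centring. At PRLR 2 regions rose with IFNα in KO. On chromosome Y 14 of the 17 regions nearest to FAM41AY1 were higher in untreated KO, at a median log2 fold change of 1.66, as were 19 of all 36 tested intergenic regions of that chromosome (52.8%, median 1.25). After centring 7 of the 17 were higher. At TNFSF18 on chromosome 1, 7 of 10 regions were higher in untreated KO, and 2 after centring. The 5 regions nearest to FTH1, which codes for ferritin heavy chain, were all higher in untreated and in treated KO, with or without centring, at a median log2 fold change of 1.66 without treatment. Whether copies of a chromosome stretch were gained or lost in the clone was not tested. ZFP36L2 differed in kind. Of its 12 regions 3 were lower in untreated KO but 8 in treated KO, and 6 fell with IFNα in KO.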

How the data were processed

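H3K27ac ChIP-seq libraries of THP-1 cells were deposited as a table of estimated counts, in which the authors counted raw HOMER tags per 1000 bp window (annotatePeaks.pl, hg38) around merged ATAC-seq peaks, with steps of 0.5, per the file headers. The submitters' processing notes name Bowtie2, HOMER and DESeq2. Values were rounded to whole counts, regions were tested where 2 or more of the 8 libraries reached 10 counts, and edgeR 4.0.16 (R 4.3.3) was fitted with TMM factors and 1 mean per group over all 8 libraries. Calls needed an adjusted p under 0.05 and a 2-fold change, the thresholds of the study's methods. On simulated counts (123276 regions, 200 changed 3-fold, KO against WT untreated) 195 were recovered and 4 unchanged regions called. The changed regions all had a mean of at least 30 counts, went up and down in equal numbers, and all regions shared 1 spread. Of the 21376 tested intergenic regions 7821 reach that depth. The simulation therefore does not give the recovery at regions of few counts or under 1-sided change. Shares of counts were compared by exact permutation of all 8 libraries, without holding treatment fixed.

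The sources do not say whether the 2 libraries of a group came from separate cultures, so p-values measure the spread between these libraries only. Replicate counts differed by more than counting error (chi-square 1.34 to 1.74 per degree of freedom). With 9046141.0 to 12935453.5 tags per library in the regions, counting error dominates at regions of few counts. The regions, gene lists and tests were chosen with earlier results of these data known. Regions named are the 2 largest rises and falls per comparison and distance bin (3 for the difference of the IFNα effects) averaging 30 counts or more and without overlap between the groups, and examples of 4 gene lists; others are said to have been chosen after their values were seen. Motifs were searched as exact letters in the hg38 genome, and genes were read from GENCODE v44 at the centre of each window. Alternatives covered scaling, tool, filter, thresholds, samples in the fit, replicate number, overlapping windows, 10 Mb centring and each library left out. The 8 input libraries were not analysed here, and some regions that the naming rule picked are not reported here.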

Additional observations from a re-analysis of the deposited data

Results flagged for a closer look

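IFNα had a different effect in USP18 KO than in WT cells, by the interaction term of the edgeR fit, at 1006 intergenic regions in the upward and 701 in the downward direction. Among the named regions the difference of the log2 effects (KO minus WT) was positive at APOBEC3A (4.63), MIR4791 (4.48), CCL8 (4.4 at 11702 bp and 4.10 at 4658 bp), the LINC01482 region at 78364 bp (4.22), PTPRO (4.13), GBP5 (3.84), CLMP (3.54), LINC00648 (3.40), LINC02077 (2.78), PARTICL (2.64), IL6 (1.90) and a region with no named nearest gene, 57785 bp from its TSS (1.5).

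It was negative at ARSD-AS1 (-2.90), LOC102723709 (-2.49), LOC101927844 (-2.44), NEGR1 (-2.30), ZFP36L2 (-2.23), PWWP2B (-2.21), BCL2 at 228894 bp (-2.04), LHX3 (-2.02), RALGAPA2 (-1.95), IKZF1 (-1.95 at 34870 bp and -1.35 at 30022 bp), SNORD129 (-1.60), PLAU (-1.49) and MIR4457 (-1.24). The NEGR1 value rests on 3 counts in each KO library with IFNα. The difference no longer passed without the second untreated WT library at LINC00648 (adjusted p = 0.645), LINC02077 (0.116), LHX3 (0.0692, and 0.149 without the first IFNα-treated WT library) and the unnamed-gene region (0.144, and 0.0805 without the first untreated KO library), and at the IKZF1 region 30022 bp away without 5 of the 8 libraries in turn (adjusted p = 0.0665 to 0.229). No cause was tested for any of them, and these regions were chosen partly for their size of effect.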

How the results depend on the processing

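With 2 libraries a group and 1 KO clone, the calls measure the difference between these libraries. Of 171 calls at the 58 regions that the naming rule picked, 19 were lost in at least 1 alternative and none changed direction. Without the fold threshold IFNα in WT gave 135 higher and 37 lower regions, KO against WT untreated 2299 higher, IFNα in KO 2440 higher and 2712 lower, and the difference of the IFNα effects 1390 lower. DESeq2 gave 1 region lower with IFNα in WT and 661 with a higher IFNα effect in KO. Scaling by summed counts gave 1087 with a lower IFNα effect, and TMM factors from the intergenic regions alone gave 1662 higher in untreated KO. As a share of all tags, added after the data were seen, the regions under 10 kb reversed from lower to higher in KO by 0.0293 percentage points. The cause was not tested beyond what each setting changes.

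Leaving out 1 library at a time gave 56 to 81 higher and 2 to 9 lower for IFNα in WT (2 without the first IFNα-treated, 3 without either untreated WT library), 1001 to 1085 and 2620 to 3015 for KO against WT untreated, 1803 to 2118 and 3474 to 4076 with IFNα, 1356 to 1601 and 1199 to 1326 for IFNα in KO, and 807 to 927 and 630 to 793 for the difference of the IFNα effects. No pairing of libraries by the replicate numbers shared by the groups was seen. Deviations from the group means correlated at 0.00 to 0.03 over the intergenic regions and at up to 0.05 over all regions tested. Counting error dominates at regions of few counts, so these correlations cannot show that pairing is absent. With the replicate number as a block, the counts were 74 and 8, 1082 and 3011, 2105 and 3871, 1609 and 1229, and 1011 and 706 in the same order, and no count moved by over 1.5 times.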
